A study of Mus musculus with 4 samples.

Results

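Cytochrome P450 (CYP) genes were described across the cell classes of the mouse kidney after contrast-induced acute kidney injury (CIAKI), in which an iodinated X-ray contrast medium harms the tubules. The members were selected on their UMI counts (unique molecular identifiers, 1 per captured transcript): they were all gene symbols made of Cyp, a family number, a subfamily letter and a gene number that had 20 or more UMIs over the 4 libraries. Of 95 symbols of that form among 57132 genes, 47 reached the minimum. The members nearest to it on the inside were Cyp26c1 with 29 UMIs and Cyp2b9 with 31, and those nearest on the outside were Cyp2b10 with 19 and Cyp2j7 with 18. The 48 symbols under the minimum held 190 UMIs together, and 10 of them had none. Genes of the superfamily whose symbols have another form, such as Cyp51 and Cyp4a12a, were not members.

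P450 enzymes are haem monooxygenases that insert an oxygen atom into lipids, steroids, vitamins and foreign compounds. Those in the endoplasmic reticulum receive electrons from the reductase encoded by Por, and those in mitochondria receive them from adrenodoxin (Fdx1). In the kidney they are best known for vitamin D activation and inactivation in the proximal tubule and for turning arachidonic acid into 20-HETE (by omega-hydroxylation) or into epoxyeicosatrienoic acids (by epoxygenation). They also metabolise drugs, mainly in the proximal tubule.

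The 4 kidney samples, numbered 1 to 4 by their labels and all labelled batch 1, were of wild-type mice after the CIAKI treatment, so the study had 1 group with 4 replicates. The labels do not state that each sample came from its own animal, so p-values measure the spread between these samples, which may be technical. The sources used here do not give the contrast agent, the dose, the time of collection, the strain, the age or the sex, and no untreated kidneys were analysed here. Every comparison set cell classes of the same injured kidneys against each other. Each library held 2148 to 19682 UMIs of the Y-linked gene Ddx3y and 5 to 11 UMIs of Xist.

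The files held 48213 cell barcodes with median depths of 1997 to 5610 UMIs per library, lowest in sample 4, and 40939 cells passed the filters. Samples 1, 2 and 3 shared 23 to 54 barcodes in each pair, while sample 4 shared 0, 1 and 0 with the others. What set sample 4 apart in this was not tested. A technical difference of sample 4 cannot be told apart from other differences between the samples. Clusters named from fixed marker genes gave 14 classes with 10 or more cells in every sample. They are called proximal tubule-like (PT-like), thick ascending limb-like (TAL-like) and so on, and 20 of the 80 clusters, with 3536 cells, stayed unnamed. The samples did not contribute alike. Sample 3 supplied 359 of the 393 cells of the S3-like cluster and nearly all cells of 2 PT-like clusters led by the injury genes Havcr1 and Krt20, and most of its endothelial-like cells lay in clusters that the other samples hardly filled. Member transcripts made up 0.0528%, 0.0584%, 0.034% and 0.0324% of all UMIs in samples 1 to 4. Levels below are CPM, the gene's UMIs per 1000000 UMIs of all cells of a class in 1 sample, listed from sample 1 to sample 4. A higher CPM can mean more transcripts per cell or a larger share of cells with the gene, and the sums do not separate them. Levels of different genes were not ranked against each other.

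The PT-like class held the highest mean CPM of the largest number of members. Of the 44 members with 10 or more UMIs in their highest class, 20 were highest in PT-like cells, 6 in intercalated-like cells and 4 in podocyte-like cells. Endothelial-like, neutrophil-like and macrophage-like cells (the last including monocytes) were highest for 3 members each, distal convoluted tubule-like (DCT-like) cells for 2, and connecting tubule and principal-like, TAL-like and stromal-like cells for 1 each. How all genes divide over the classes was not computed, so these counts do not show whether members differ from genes in general. For 20 of the 44, among them 5 of those highest in PT-like cells, 3 in intercalated-like cells and 3 in podocyte-like cells, the highest mean was less than 1 SD over samples above that of the next class. The podocyte-like mean of Cyp11a1 rested on 14 UMIs of sample 2, with none in the other samples. The remaining 3 members, Cyp26c1, Cyp3a57 and Cyp4f15, had fewer than 10 UMIs in their highest of the 14 classes found in every sample. Cyp4f15, an omega-hydroxylase, had 23 of its 53 UMIs in the 44 urothelial-like cells of sample 4, a level of 36.2 CPM, and this class had too few cells in the other samples. Sample 1 held 25 of the 53 UMIs and had no urothelial-like cell.

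**Figure D1:**
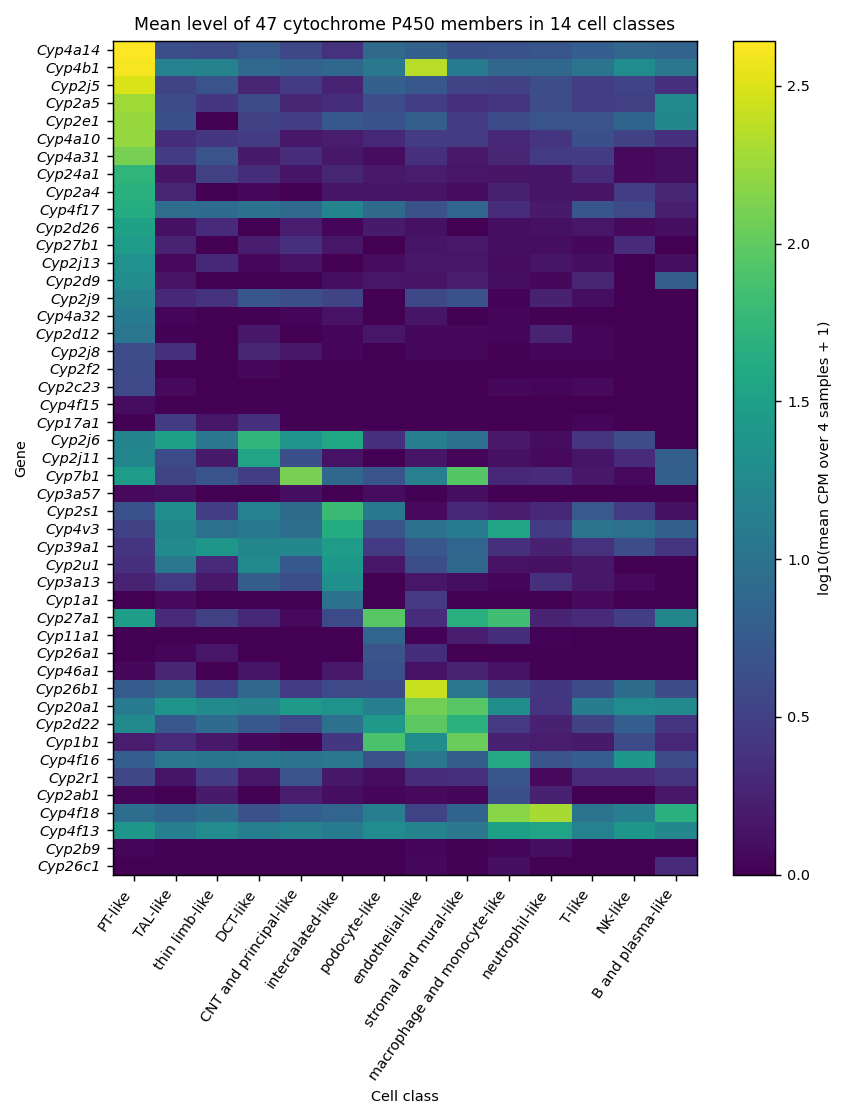
Mean level of each of the 47 members (rows) in each of 14 cell classes (columns), as log10 of the mean CPM over 4 samples plus 1, rows ordered by the class with the highest mean. The PT-like column is the brightest for a block of 21 rows, Cyp4f15 with its single PT-like UMI included, and smaller blocks belong to intercalated-like, podocyte-like, endothelial-like and leukocyte-like classes.

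The omega-hydroxylases of the Cyp4a subfamily, which turn arachidonic and other fatty acids into omega-hydroxy acids, were higher in PT-like cells than in TAL-like cells of the same samples. Cyp4a14 had 854, 769, 18.1 and 113 CPM in PT-like cells, against 8.04, 3.41, 0.403 and 1.29 CPM in TAL-like cells. Cyp4a10 had 252, 258, 47.8 and 114 CPM in PT-like cells, against 2.58, 1.89, 0.403 and 0 CPM in TAL-like cells, where the 0 UMIs of sample 4 allow up to 1.93 CPM. The groups did not overlap for either gene, and in both classes the value of sample 1 or 2 was the highest. The log2 fold change, fitted with edgeR's quasi-likelihood test with the sample as a block, was 6.75 ± 0.34, adjusted p = 4.64e-07 for Cyp4a14 and 6.73 ± 0.31, adjusted p = 3.49e-07 for Cyp4a10. Cyp4a31 and Cyp4a32, close relatives of Cyp4a10, gave 6.001 ± 0.27 and 6.53 ± 0.61 (adjusted p = 3.39e-07 and 2.00e-05). Cyp4b1, which hydroxylates fatty acids and activates several lung toxins, had 423, 437, 600.4 and 138 CPM in PT-like cells, against 13.5, 11.4, 19.8 and 10.3 CPM in TAL-like cells (4.63 ± 0.27, adjusted p = 8.68e-07). It was above every TAL-like value in every sample. Sample 3 was the highest, and 359 of its 804 PT-like cells were S3-like. In S1/S2-like cells alone Cyp4b1 had 342, 468, 197 and 192 CPM. Of the 377 S1/S2-like cells of sample 3, 243 lay in the Havcr1-led cluster 41 and 112 in the Krt20-led cluster 62. The S1/S2-like levels of sample 3, here and below, are thus mostly those of injury-led clusters. Cyp4a31 had 218, 148, 49.7 and 86.3 CPM in PT-like cells, and as for Cyp4a14, samples 1 and 2 were above samples 3 and 4. In S1/S2-like cells alone Cyp4a31 had 208, 149, 47.3 and 150 CPM, so sample 4 was not below sample 2 there. Cyp4f17 had 58.5, 46.7, 28.2 and 36.8 CPM in PT-like cells and 7.13, 9.08, 10.9 and 3.87 CPM in TAL-like cells (2.23 ± 0.30, adjusted p = 2.37e-04). Cyp4f13 differed less, at 25.4, 35.4, 16.0 and 19.5 CPM in PT-like cells and 15, 12.9, 10.7 and 11 CPM in TAL-like cells (0.72 ± 0.22, adjusted p = 0.0280), and its call was lost without sample 1, 2 or 4, by DESeq2 and without the sample block.

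Among the epoxygenases, which make epoxyeicosatrienoic acids, Cyp2j5 had 357, 369, 438 and 77.0 CPM in PT-like cells, against 2.88, 1.14, 4.64 and 1.29 CPM in TAL-like cells (6.76 ± 0.32, adjusted p = 3.59e-07). Sample 4 was the low one in PT-like cells, and still above every TAL-like value. Cyp2j13 had 16.8, 21.6, 35.2 and 8.39 CPM in PT-like cells and 11.8, 21.8, 13.3 and 12.3 CPM in S1/S2-like cells alone, where sample 2 and not sample 3 was the highest. Those S1/S2-like cells of sample 3 were mostly of the injury-led clusters. Cyp2j13 (6.13 ± 0.50), Cyp2j9 (3.55 ± 0.38) and Cyp2j11 (2.22 ± 0.42) were also higher in PT-like cells, while Cyp2j6 was lower, at 16.0, 16.4, 15 and 10.5 CPM in PT-like cells and 42.2, 36.7, 23.4 and 20.6 CPM in TAL-like cells (-1.20 ± 0.21, adjusted p = 0.00128). Cyp2j8 and Cyp2c23, with 114 and 78 UMIs in all, did not pass the filter on low counts. Cyp2j8 stood at 0.780, 0.865, 10.7 and 0.599 CPM in PT-like cells and Cyp2c23, the arachidonic acid epoxygenase of the Cyp2c group, at 2.73, 1.73, 6.11 and 0.898 CPM.

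The Cyp1, Cyp2 and Cyp3 members outside the epoxygenase and vitamin D groups were listed together, whatever their main substrate. Of the 8 tested, 7 were higher in PT-like cells. Cyp2e1, which oxidises ethanol and paracetamol, had 133, 116, 371 and 56.3 CPM in PT-like cells, against 2.58, 2.27, 5.44 and 3.22 CPM in TAL-like cells (5.46 ± 0.29, adjusted p = 5.45e-07). Cyp2a5, a coumarin 7-hydroxylase, had 296, 167, 27.0 and 236 CPM in PT-like cells, against 2.58, 2.27, 0.202 and 7.09 CPM in TAL-like cells (5.99 ± 0.32, adjusted p = 5.45e-07). The groups did not overlap for either gene, and sample 3 was the highest for Cyp2e1 and the lowest for Cyp2a5. In S1/S2-like cells alone Cyp2e1 had 43.0, 105, 49.6 and 80.2 CPM, with sample 2 the highest, and Cyp2a5 had 102, 162, 8.99 and 331 CPM, with sample 3 again the lowest. Most S1/S2-like cells of sample 3 were of the injury-led clusters, so the samples are not matched in this respect. Cyp2a4, a testosterone 15-alpha-hydroxylase, Cyp2d9, a testosterone 16-alpha-hydroxylase, Cyp2d12, Cyp2d26 and Cyp2d22 were higher as well, with log2 fold changes of 5.34 ± 0.32, 5.66 ± 0.52, 6.37 ± 0.60, 6.33 ± 0.43 and 1.88 ± 0.28. In PT-like cells Cyp2a4 had 74.5, 80.4, 17.3 and 14.1 CPM and Cyp2d9 had 40.2, 23.3, 6.53 and 4.79 CPM, both lower in samples 3 and 4 than in samples 1 and 2. Cyp2d26 had 40.2, 19.9, 29.1 and 36.5 CPM and Cyp2d12 had 10.1, 6.05, 6.74 and 16.2 CPM, with no such split. In S1/S2-like cells alone Cyp2a4 had 39.0, 63.5, 6.66 and 28.8 CPM and Cyp2d9 had 11.3, 16.9, 0.666 and 8.23 CPM. There sample 4 was still below samples 1 and 2, but nearer to sample 1 than to sample 3. Of the 1273 PT-like cells of sample 4, 832 lay in cluster 10, which was given no segment. Cyp2s1 was the 1 of these 8 that was lower (-2.56 ± 0.30, adjusted p = 8.89e-05).

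Of the vitamin D genes, Cyp24a1 (the 24-hydroxylase that inactivates vitamin D) had 10.5, 13.0, 163 and 26.7 CPM in PT-like cells, against 0, 0, 0.806 and 0.645 CPM in TAL-like cells (7.21 ± 0.42, adjusted p = 8.00e-07), where the 0 UMIs of samples 1 and 2 allow up to 0.455 and 1.14 CPM. Its level in sample 3 was several times that of any other sample. Cyp27b1 (the 1-alpha-hydroxylase that makes the active hormone) had 43.7, 56.2, 1.69 and 9.58 CPM in PT-like cells, against 0.152, 1.51, 0.806 and 0.645 CPM in TAL-like cells, and it did not pass the filter of this comparison. Samples 1 and 2 were high and sample 3 low, the reverse of Cyp24a1. Cyp27a1, a mitochondrial sterol 27-hydroxylase that also hydroxylates vitamin D at carbon 25, had 41.4, 32.0, 11.8 and 31.7 CPM in PT-like cells, against 1.67, 1.14, 0.403 and 1.29 CPM in TAL-like cells (4.48 ± 0.28, adjusted p = 1.31e-06). Cyp2r1, the main vitamin D 25-hydroxylase of the liver, was detected at 1.56, 5.19, 1.90 and 2.10 CPM in PT-like cells.

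In all, 28 of the 47 members passed the filter on low counts in the comparison of PT-like with TAL-like cells, and 20 were higher and 6 lower at an adjusted p under 0.05. Of all 11871 genes tested, 19.3% were higher and 19.0% lower. Without the filter 46 members were tested, with a median log2 fold change of 2.10, against -0.01 over all genes, and 25 were higher and 8 lower. Of all 27840 genes tested without the filter, 2875 were higher and 2827 lower. With a count of 0 set to its upper limit of 3 counts, the groups did not overlap for 19 of the 20 higher and 4 of the 6 lower members, while 10.7% of all genes tested were called higher and 8.41% lower with groups that did not overlap. By role, 7 of 10 tested omega-hydroxylases were higher and 2 lower, and 4 of 5 epoxygenases were higher and 1 lower. Of the remaining Cyp1, Cyp2 and Cyp3 members 7 of 8 were higher and 1 lower. The 2 vitamin D genes tested, of 4 listed, were both higher. Members high in PT-like cells alone could pass the filter through that class, such as Cyp2d12 with at most 0.152 CPM in TAL-like cells. For these a higher call was close to fixed once they were tested, and role counts without the filter were not made. Summed CPM of the 12 PT markers, Lrp2 and Slc34a1 among them, was 3417 to 7156 in PT-like cells and 87.1 to 139 in TAL-like cells, so TAL-like libraries also held transcripts of PT markers. Summed CPM of 12 neutrophil markers, all 12 of them detected in both classes, was 663 to 3191 in PT-like cells and 279 to 1850 in TAL-like cells. The part of such transcripts in the low values was not tested.

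**Figure D2:**
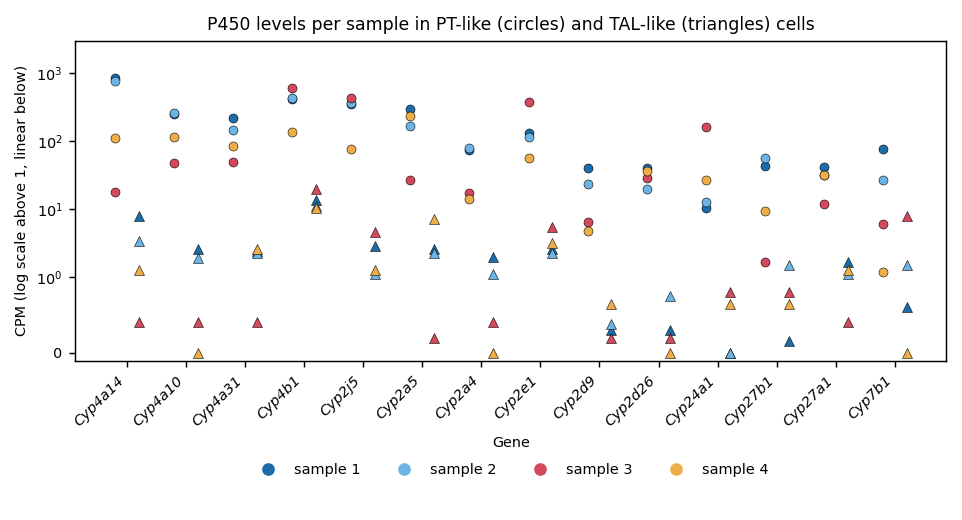
CPM of 14 members in PT-like cells (circles) and TAL-like cells (triangles) of each of the 4 samples (colours), on a scale that is logarithmic above 1 CPM and linear below. Circles lie above triangles of the same gene in every sample except for Cyp7b1 in sample 3, and the circles of Cyp4a14 run from 18.1 to 854 CPM.

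Other genes of the pathway were described from fixed lists, leaving out Lrp2, Cubn and Hnf4a, which served as PT markers. In PT-like against TAL-like cells 19.3% of all genes tested were higher and 19.0% lower. Of 7 redox partners, 6 were tested in PT-like against TAL-like cells: Por, the P450 reductase, was higher (1.11 ± 0.19, adjusted p = 0.00116), as was Cyb5a (1.86 ± 0.31, adjusted p = 9.47e-04), while Fdxr was lower (-1.12 ± 0.39, adjusted p = 0.0435) and 3 did not pass. On 6 redox partners these counts cannot be told apart from the shares over all genes. Of 15 regulators, 13 were tested and 6 were higher, none lower. Among the higher ones were the pregnane X receptor Nr1i2 (7.01 ± 0.63), Ppara, the fatty acid receptor that drives Cyp4a genes (3.54 ± 0.20), Rxra (1.43 ± 0.20) and Cebpb (1.27 ± 0.20). Of 21 downstream and conjugating enzymes, 17 were tested, 9 were higher and 2 lower. Ephx2, the soluble hydrolase that opens the epoxides made by epoxygenases, was among the higher ones (4.84 ± 0.23, adjusted p = 3.69e-07), and the sulfotransferase Sult1a1 was the lowest (-4.82 ± 0.25, adjusted p = 5.13e-07).

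Promoters of the members were read from RefSeq (GRCm38.p6, 250 bases before to 50 after the start site) and searched on both strands for 3 motifs. The table held 35 of the 47 members, 13 of them highest in PT-like cells. The TATA box TATAAA was found in 7 of these 13 windows (53.85%), in 3 of the 22 other members (13.64%) and in 14.16% of 27025 promoters. With its first base between 40 and 20 bases before the start, it was found in 5 of the 13, in 1 of the 22 and in 2.75% of all promoters. The nuclear receptor half-site AGGTCA was found in 4 of the 13, in 2 of the 22 and in 16.04% of all, and the AHR core GCGTG in 2 of the 13, in 8 of the 22 and in 32.46% of all. Cyp2a4 and Cyp2a5 are near-copies, so their windows are not separate cases. A match is a description of the letters, not a binding site. Of the 13, the 5 windows with a TATA box near the start are shown for the 120 bases that end right before the start site. That of Cyp4b1, which had none of the 3 motifs, is given for comparison. Only exact matches were counted, and the Cyp4b1 window holds tataag, which differs from TATAAA in the last letter. In Cyp2d9 and Cyp2d26 the match is TTTATA, which is TATAAA on the other strand. The window of Cyp1a1, the 1 of the 22 with such a TATA box, is not shown. Capitals mark the motifs, also where they lie on the other strand.
Cyp2a4 (chr7:26307072-26307191, plus strand): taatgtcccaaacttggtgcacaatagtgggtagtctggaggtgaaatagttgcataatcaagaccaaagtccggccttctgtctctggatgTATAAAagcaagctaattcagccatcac
Cyp2a5 (chr7:26835219-26835338, plus strand): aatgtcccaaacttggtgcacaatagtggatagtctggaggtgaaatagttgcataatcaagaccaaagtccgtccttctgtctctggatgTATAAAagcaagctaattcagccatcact
Cyp2d9 (chr15:82452257-82452376, plus strand): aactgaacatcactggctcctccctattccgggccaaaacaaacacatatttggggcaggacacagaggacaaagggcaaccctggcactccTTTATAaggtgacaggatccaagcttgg
Cyp2d26 (chr15:82794246-82794365, minus strand): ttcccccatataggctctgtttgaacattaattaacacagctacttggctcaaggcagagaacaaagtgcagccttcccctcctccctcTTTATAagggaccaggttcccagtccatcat
Cyp2e1 (chr7:140763699-140763818, plus strand): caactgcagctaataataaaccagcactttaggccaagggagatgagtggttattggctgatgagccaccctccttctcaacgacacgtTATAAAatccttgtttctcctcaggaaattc
Cyp4b1 (chr4:115647722-115647841, minus strand): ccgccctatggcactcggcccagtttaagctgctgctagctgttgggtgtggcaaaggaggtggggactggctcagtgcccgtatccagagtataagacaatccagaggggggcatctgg

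The 6 members lower in PT-like than in TAL-like cells were Cyp39a1, Cyp4v3, Cyp2s1, Cyp4f16, Cyp20a1 and Cyp2j6, and several had a higher mean still in other distal classes. Cyp39a1, which 7-alpha-hydroxylates 24-hydroxycholesterol, had 3.12, 0, 0.843 and 2.10 CPM in PT-like cells, against 20.6, 23.5, 16.1 and 9.03 CPM in TAL-like cells (-3.47 ± 0.47, adjusted p = 2.56e-04). Cyp4v3, a fatty acid omega-hydroxylase, was lower by a log2 fold change of -2.72 ± 0.37, adjusted p = 2.50e-04. In intercalated-like cells, the acid-base cells of the collecting duct, Cyp39a1 averaged 28.0 ± 6.98 CPM and Cyp4v3 averaged 42.1 ± 13.3 CPM (SD, n = 4 samples). Cyp2s1, which metabolises retinoids and eicosanoids, reached 102, 62.6, 47.7 and 38.5 CPM in intercalated-like cells, its highest class. Cyp3a13, a drug-metabolising enzyme, stood at 22.0, 28.7, 21.2 and 7.93 CPM there, and Cyp2u1, a long-chain fatty acid hydroxylase, at 47.4, 29.8, 1.76 and 19.8 CPM, with sample 3 far below the other samples. Cyp1a1, the dioxin-inducible enzyme, had 10.2, 10.3, 0 and 14.7 CPM in intercalated-like cells, and sample 3 had no Cyp1a1 UMI in its whole library. Cyp2j6 and Cyp2j11 were highest in DCT-like cells, with means of 54.4 ± 15.3 and 33.9 ± 16.8 CPM (SD, n = 4). These class levels were compared by no test, and the highest mean was less than 1 SD above the next class for Cyp39a1 (thin limb-like, 24.3 ± 19.5 CPM), Cyp4v3 (macrophage-like, 33.7 ± 13.4 CPM) and Cyp2u1 (DCT-like, 17.0 ± 13.4 CPM).

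**Figure D3:**
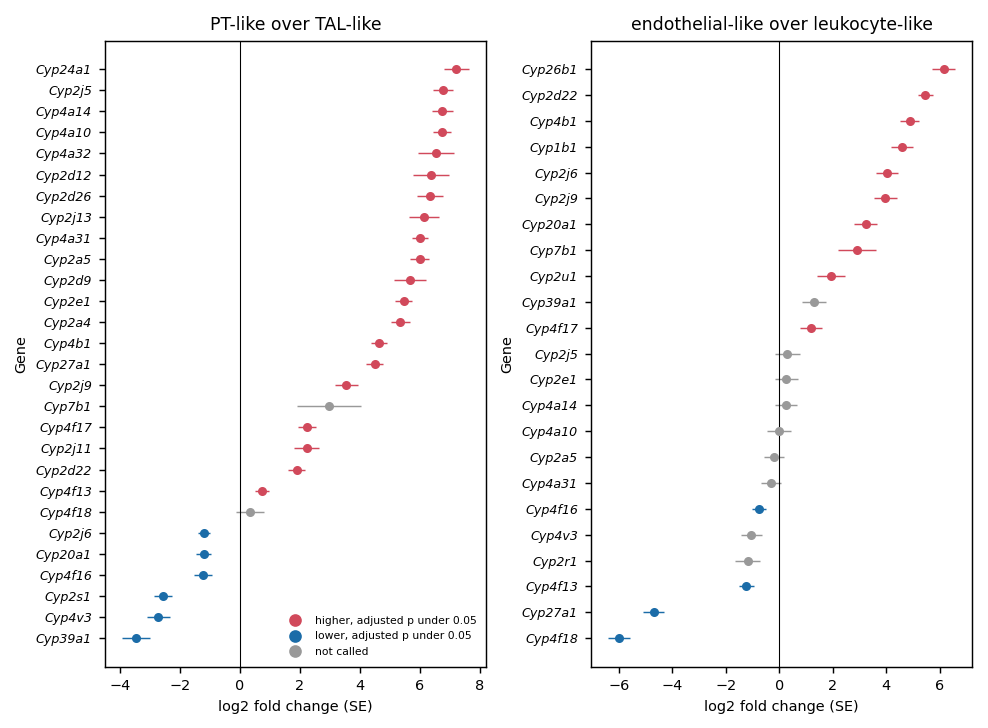
Log2 fold changes (points) with standard errors (bars) of the members tested in PT-like over TAL-like cells (left, 28 genes) and in endothelial-like over leukocyte-like cells (right, 23 genes), coloured by the call at an adjusted p under 0.05. On the left most points lie well right of 0, and on the right Cyp26b1 and Cyp2d22 head the list while Cyp4f18 and Cyp27a1 end it.

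Within PT-like cells some members differed widely between samples. Cyp4a14 was higher in samples 1 and 2 than in sample 3 in every PT-like cluster with 10 or more cells of both. In the S1/S2-like cluster 21 it stood at 868 CPM in sample 1, 839 CPM in sample 2 and 212 CPM in sample 4. In the S3-like cluster it stood at 1766 CPM in sample 1 (95% Poisson interval 1579.6 to 1968) and 24.5 CPM in sample 3 (17.6 to 33.3). Such intervals cover counting error only. Cyp24a1 was highest in cluster 62, which was led by Krt20 and fibrinogen genes and lay almost wholly in sample 3, with 478 of its UMIs and 448 CPM (409 to 490.5). In the Havcr1-led cluster 41 of the same sample it had 82.6 CPM, and in the S3-like cluster 70.0 CPM, all above the 26.2 CPM or less seen in any PT-like cluster with 10 or more cells of samples 1 and 2. Cyp27b1 went the other way, with 72.4 and 78.7 CPM in cluster 53 of samples 1 and 2 and 3.20 CPM in cluster 41 of sample 3. Each sample is 1 library, and the cause of these differences between samples was not tested.

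**Figure D4:**
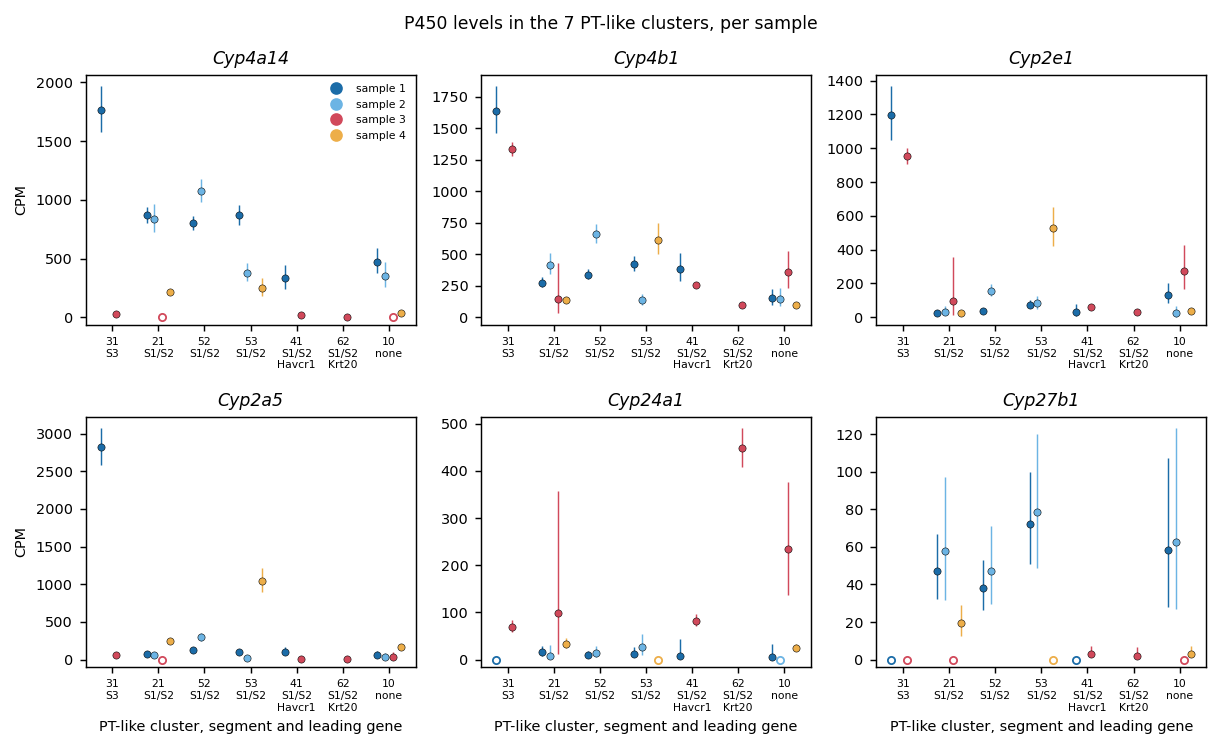
CPM of 6 members in each of the 7 PT-like clusters (numbers with segment and, where the cluster was led by it, injury gene) per sample, with exact 95% Poisson intervals; open circles mark 0 UMIs, and a sample with fewer than 10 cells in a cluster is not drawn. Cyp4a14 and Cyp27b1 are low in sample 3 throughout, Cyp24a1 is high there, and Cyp4b1 and Cyp2e1 peak in the S3-like cluster of samples 1 and 3.

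S3-like cells, those of the straight part of the proximal tubule, could be set against S1/S2-like cells of the convoluted part in samples 1 and 3 only, with 28 and 359 S3-like cells. Cyp2e1 had 1199 and 954 CPM in S3-like cells of samples 1 and 3, against 43.0 and 49.6 CPM in their S1/S2-like cells (4.87 ± 0.42, adjusted p = 3.41e-27). Cyp4b1 had 1642 and 1336 CPM in S3-like cells, against 342 and 197 CPM in S1/S2-like cells (2.86 ± 0.39, adjusted p = 3.19e-11). For both, each S3-like value was above each S1/S2-like value. For Cyp2a5 the values overlapped, at 2819 and 59.2 CPM in S3-like cells against 102 and 8.99 CPM in S1/S2-like cells, with the same direction in both samples (4.22 ± 0.44, adjusted p = 5.58e-19). Cyp2d9 (5.33 ± 0.53), Cyp2a4 (3.59 ± 0.41), Cyp2j11 (3.49 ± 0.49), Cyp2d12 (3.08 ± 0.71) and Cyp2j13 (2.99 ± 0.45) were higher too. Cyp4f17, a fatty acid omega-hydroxylase, was lower (-2.52 ± 0.59, adjusted p = 2.62e-04), as were Cyp2j9, Cyp4a32 and Cyp24a1. Cyp4a32 had 0 UMIs in S3-like cells of samples 1 and 3, against 9.97 and 13.0 CPM in S1/S2-like cells. A count of 0 allows up to 16.2 CPM in sample 1 and 1.80 CPM in sample 3, so a difference was not detectable in sample 1.

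In this comparison 24 members were tested, 13 were higher and 4 lower, where 9.75% of all genes were higher and 15.8% lower. With a count of 0 set to its upper limit, the groups did not overlap for 7 of the 13 and 1 of the 4, while 7.97% of all genes tested were called higher and 13.5% lower with groups that did not overlap. With 2 samples only 1 residual degree of freedom is left, the size of these p-values rests on the spread assumed from all genes, and without the sample as a block no member was called (12 had an unadjusted p under 0.05). The S1/S2-like cells of sample 3 were mostly the Havcr1-led and Krt20-led clusters. With those left out, an alternative chosen after seeing the data, 7 of 22 members tested were higher and none lower. In it 9 calls were lost, those of Cyp24a1, Cyp2d12, Cyp2j5, Cyp2j9, Cyp4a10, Cyp4a14, Cyp4a31, Cyp4f17 and Cyp7b1. Leaving these clusters out left 22 S1/S2-like cells in sample 3. Of the 9, Cyp2d12 had a log2 fold change of 2.37, Cyp7b1 1.72, Cyp2j5 1.52, Cyp4a10 1.42, Cyp4a14 1.30, Cyp4a31 0.14, Cyp24a1 -0.41, Cyp4f17 -1.63 and Cyp2j9 -3.55, with adjusted p of 0.154 to 0.943. The 6 injury markers summed to 1901 to 4964 CPM in S3-like cells and 4388 to 9243 CPM in S1/S2-like cells. The median mitochondrial share was 14.5% and 15.1% in S3-like cells of samples 1 and 3, and 4.54% and 1.67% in their S1/S2-like cells. Of the fixed lists, 9 of 16 tested conjugating and downstream enzymes were higher and 2 lower, and 3 of 5 redox partners were higher and none lower. The downstream enzymes were headed by Ugt2b37 (4.31 ± 0.40), and 5 of 13 regulators were lower and none higher, with Nr1i2 and Ppara among them (-4.05 ± 1.23 and -1.37 ± 0.39).

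PT-like cells with a UMI of Havcr1, the kidney injury molecule 1 gene, were set against PT-like cells without one in the same samples. A Havcr1 UMI was found in 15.8%, 20.9%, 38.9% and 5.26% of PT-like cells (median depths of 1954 to 4692 UMIs), and in 0.802%, 0.31%, 2.12% and 0 of TAL-like cells (2078 to 5853 UMIs). Few members differed. Cyp27b1 was lower, at 15.3, 11.4, 0.83 and 9.54 CPM in Havcr1-positive cells, against 53.4, 75.7, 2.57 and 9.59 CPM in Havcr1-negative cells (-1.96 ± 0.37, adjusted p = 0.00784). Cyp24a1 was also lower, at 4.59, 17.1, 93.7 and 12.7 CPM in Havcr1-positive cells, against 12.6, 11.2, 234 and 28.1 CPM in Havcr1-negative cells (-1.23 ± 0.26, adjusted p = 0.0151), with sample 2 going the other way. In the Krt20-led cluster 62, where Cyp24a1 was highest, 17.5% of cells had a Havcr1 UMI, so most counted as Havcr1-negative. The Havcr1-negative side is thus not free of injury-led cells, above all in sample 3, and the part of this cluster was not tested. Cyp4b1 was higher in 4 of 4 samples, at 628, 672, 701 and 226 CPM in Havcr1-positive cells, against 353, 335, 497 and 129 CPM in Havcr1-negative cells (0.64 ± 0.16, adjusted p = 0.0412). Cyp2a4 and Cyp2a5 had log2 fold changes of 1.16 ± 0.32, adjusted p = 0.0601 and 0.92 ± 0.25, adjusted p = 0.0628, and Cyp4a14 had 893, 883, 25.7 and 70.0 CPM in Havcr1-positive cells, against 840.1, 719.8, 10.3 and 117 CPM in Havcr1-negative cells (0.06 ± 0.22, adjusted p = 0.926).

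Of 24 members tested, 1 was higher and 2 were lower, where 0.515% of all genes were higher and 1.71% lower. The groups overlapped for each of these 3, and 0.121% of all genes were called higher and 0.232% lower without overlap. Havcr1-positive cells were deeper, with medians of 4019 to 8486 UMIs against 1831 to 4109 in Havcr1-negative cells, and summed S3 markers were 219.5 to 1123 CPM in positive cells and 144 to 585 CPM in negative cells. Among S1/S2-like clusters alone, an alternative chosen after seeing the data, only Cyp27b1 was called, while Cyp24a1 had a log2 fold change of -1.13 (adjusted p = 0.123) and Cyp4b1 of 0.69 (adjusted p = 0.165). With cells thinned to 1000 UMIs 7 members were tested and none was called; Cyp4b1 had 0.22 (adjusted p = 0.572), and Cyp24a1 and Cyp27b1 did not pass the filter. Without sample 1, and likewise without sample 2, Cyp24a1 was the 1 member of these 3 still called, and the call of Cyp4b1 was also lost without sample 4. Summed neutrophil markers were 423 to 1023 CPM in positive cells and 687 to 3933 CPM in negative cells. The split by Havcr1 UMIs depends on depth, and the part of depth and of these markers in these differences was not tested. Of the fixed lists, none of the 5 redox partners or 12 regulators tested passed, and 1 of 15 downstream enzymes did.

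Endothelial-like cells, the lining of vessels and glomerular capillaries, had higher levels of 10 members than leukocyte-like cells, the sum of all leukocyte classes. Cyp26b1, which inactivates retinoic acid, had 229, 609, 19.998 and 186 CPM in endothelial-like cells, against 2.08, 4.82, 0.669 and 1.18 CPM in leukocyte-like cells (6.15 ± 0.43, adjusted p = 2.98e-05). The groups did not overlap, although sample 3 was far below the other samples. Cyp4b1 had 333, 276, 199 and 105 CPM in endothelial-like cells, against 6.23, 5.75, 13.5 and 2.03 CPM in leukocyte-like cells (4.87 ± 0.35, adjusted p = 3.28e-05). It was highest in cluster 56, led by Ehd3 and Gata5, which are known from glomerular endothelium, with 1153 and 1079.6 CPM in samples 1 and 2. Cyp2d22, a mouse Cyp2d enzyme, had 118, 118, 47.5 and 95 CPM in endothelial-like cells, against 1.5, 1.34, 1.31 and 2.45 CPM in leukocyte-like cells (5.47 ± 0.28, adjusted p = 1.73e-05). Cyp20a1, an orphan member without a settled substrate, had 152, 171, 66.2 and 84.8 CPM in endothelial-like cells, against 6.13, 8.55, 21.3 and 6.84 CPM in leukocyte-like cells (3.24 ± 0.43, adjusted p = 7.32e-04). Cyp1b1, which oxidises oestrogens and aryl hydrocarbons, gave 4.59 ± 0.40, adjusted p = 9.29e-05, and Cyp2j6, Cyp2j9 and Cyp7b1 gave 4.03 ± 0.42, 3.96 ± 0.43 and 2.92 ± 0.72. Cyp4f17 and Cyp2u1 were called higher too, but both calls were lost without sample 1, 2 or 4 and without the sample block. That of Cyp4f17 was also lost with the RLE scaling, without the filter and at the 20% mitochondrial limit. The adjusted p of Cyp7b1 was 0.0143, and its call was lost without sample 4 (adjusted p = 0.0622) and without the sample block (1.97, adjusted p = 0.162). Stromal-like cells were not part of this comparison. They had 45.3, 35.7, 11.5 and 97.7 CPM of Cyp2d22, in sample 4 not below endothelial-like cells. Of Cyp20a1 they had 96.4, 129, 63.0 and 67.9 CPM, and its endothelial-like mean was less than 1 SD above theirs.

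Cyp26b1 was spread over the endothelial-like clusters of samples 1, 2 and 4. Cluster 4, led by Plvap, had 271, 677 and 380.0 CPM in them, and cluster 6, which held most endothelial-like cells of sample 4, had 204 CPM there. In sample 3 the large clusters 5, 14 and 17 had 31.5, 2.5 and 17.9 CPM. No endothelial-like cluster with 20 or more cells from sample 3 also held 20 or more cells of another sample, so sample and cluster cannot be told apart here. Cyp1a1 stood at 30.8 CPM (26 UMIs) in cluster 49 of sample 1, led by the arterial genes Gja5 and Eln, and at 1.15 CPM (1 UMI) in the same cluster of sample 2.

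In endothelial-like against leukocyte-like cells 23 members were tested, 10 were higher and 4 lower, where 19.4% of all genes were higher and 22.0% lower. With a count of 0 set to its upper limit, the groups did not overlap for 8 of the 10 and 2 of the 4, while 14.7% of all genes tested were called higher and 12.2% lower with groups that did not overlap. Over the 23 members the median log2 fold change was 0.30, against -0.03 over all genes, and it had no stable sign: it was -0.30 without sample 3 and 0.79 without sample 2. The PT members Cyp4a14, Cyp2j5, Cyp2e1, Cyp4a10, Cyp2a5 and Cyp4a31 were tested and not called, with log2 fold changes of -0.33 to 0.30. The 12 PT markers were all detected in both classes, with sums of 131 to 219.9 CPM in endothelial-like cells and 103 to 278 CPM in leukocyte-like cells. Of the redox partners, 3 of 6 tested were higher (Cyb5a, Cyb5b and Fdx1) and Fdxr was lower, of 12 regulators 1 was higher and 3 lower, and of 11 downstream enzymes 4 were higher and 1 lower.

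Of the 4 members lower in endothelial-like cells, Cyp4f18 and Cyp4f13 had their highest class mean in neutrophil-like cells, Cyp4f16 in macrophage-like cells and Cyp27a1 in podocyte-like cells. Cyp4f18, which hydroxylates leukotriene B4 in mouse neutrophils, had 3.79, 2.71, 0.825 and 2.74 CPM in endothelial-like cells, against 241, 192, 39.6 and 71.3 CPM in leukocyte-like cells (-6.001 ± 0.41, adjusted p = 2.84e-05). Cyp27a1 had 2.08, 1.27, 0.254 and 0.997 CPM in endothelial-like cells, against 16.6, 27.2, 11.9 and 27.6 CPM in leukocyte-like cells (-4.70 ± 0.39, adjusted p = 7.35e-05). Sample 3 was the lowest for both in leukocyte-like cells, and the mix of these cells differed: neutrophil-like cells were 2328, 3767, 747 and 199 of the 3238, 5417, 4961 and 5499 leukocyte-like cells of samples 1 to 4. The part of this mix was not tested. Cyp4f13 and Cyp4f16 differed less, by -1.24 ± 0.28, adjusted p = 0.00941 and -0.76 ± 0.25, adjusted p = 0.0467. The call of Cyp4f13 was lost without the sample block, and that of Cyp4f16 without sample 1, 2 or 4, without the block and after thinning (-0.43, adjusted p = 0.287).

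Between the myeloid classes, Cyp27a1 was higher in macrophage-like cells, with 84.4, 94.3, 15.5 and 72.3 CPM in macrophage-like cells, against 1.40, 1.15, 0.798 and 0 CPM in neutrophil-like cells (5.04 ± 0.44, adjusted p = 1.57e-04). Cyp4f16 had 54.1, 56.0, 10.5 and 32.7 CPM in macrophage-like cells, against 4.14, 2.69, 0.998 and 7.97 CPM in neutrophil-like cells (2.88 ± 0.37, adjusted p = 3.45e-04). Cyp4v3, Cyp2r1 and Cyp20a1 were higher in macrophage-like cells as well (3.26 ± 0.44, 3.23 ± 0.53 and 2.65 ± 0.34). With a count of 0 set to its upper limit, the groups overlapped for Cyp2r1 and not for the other 4, while 18.3% of all genes tested were called higher with groups that did not overlap. Cyp4f18 was high in both classes, with 182, 215, 28.2 and 168 CPM in macrophage-like cells and 272, 199, 155 and 157 CPM in neutrophil-like cells. Its log2 fold change was -1.47 ± 0.47, adjusted p = 0.0241, but it was lower in only 2 of 4 samples by CPM, and with the RLE scaling the call was lost. Summed neutrophil markers were 9678, 2967, 377 and 1551 CPM in macrophage-like cells and 64083 to 225370 CPM in neutrophil-like cells. The part of neutrophil transcripts in the macrophage-like level of Cyp4f18 was not tested.

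In this comparison 16 members were tested, 5 were higher and 8 lower, where 31.9% of all genes were higher and 26.5% lower. Only 1 of the 8 lower members was lower in all 4 samples, and the groups overlapped for all 8, while 5.72% of all genes tested were called lower with groups that did not overlap. Of these, 6 are members highest in PT-like cells (Cyp4a31, Cyp4a14, Cyp2j5, Cyp2a5, Cyp2e1 and Cyp4b1), and none exceeded 13.0 CPM in either class. The 12 PT markers, all detected, summed to 203 to 326 CPM in macrophage-like cells and 50.5 to 128 CPM in neutrophil-like cells, and their part was not tested. With the RLE scaling, which moves the median log2 fold change of all genes to 0.27 against 0.05, 4 members were lower. Without sample 2, 4 of 11 members tested were higher and 2 lower, and without sample 1, 5 of 13 were higher and 3 lower. Of the fixed lists, 3 of 6 redox partners were higher and 1 lower, 1 of 9 regulators was higher and 5 lower, and 2 of 10 downstream enzymes were higher and 5 lower. Cyp2ab1, an orphan member, had 6.12, 3.37, 3.97 and 0 CPM in macrophage-like cells (1.96 ± 0.81, adjusted p = 0.0695). Its UMIs lay mostly in the macrophage-like clusters 39 (led by Ccr2 and F13a1), 13 and 32, with 19.9 and 15 CPM in cluster 39 of samples 1 and 2.

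**Figure D5:**
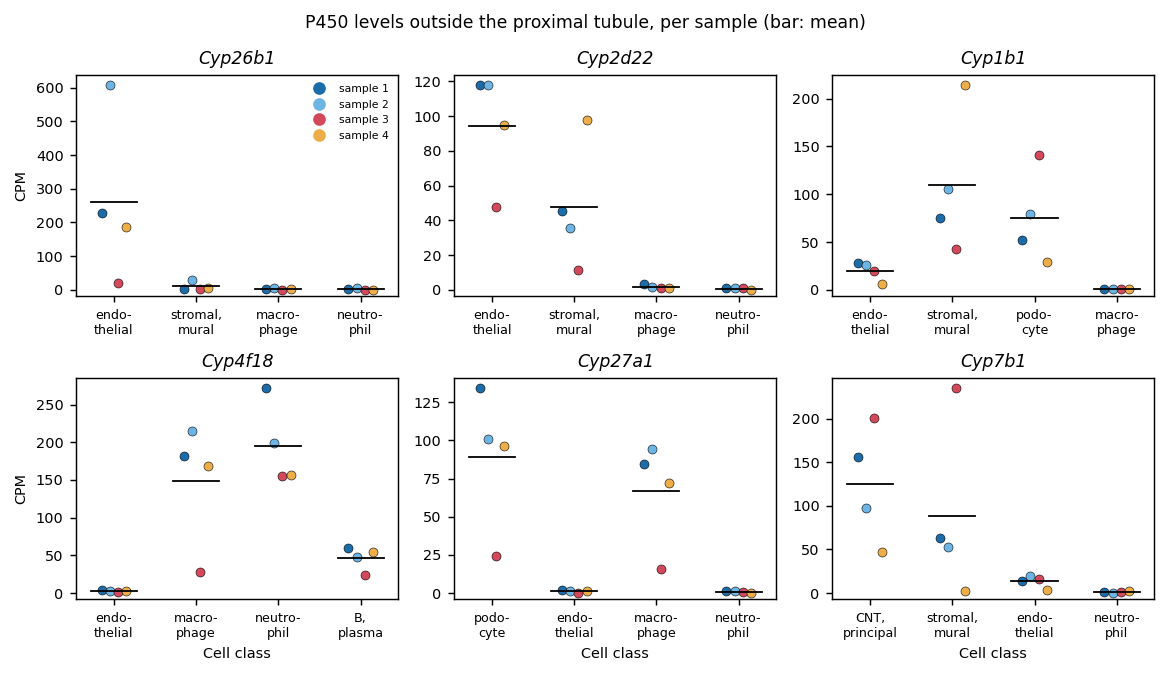
CPM of 6 members per sample (points) and their mean (bars) in selected classes. Cyp26b1 stands out in endothelial-like cells. Cyp2d22 is higher there than in stromal-like cells in samples 1, 2 and 3 but not in sample 4. Cyp1b1 stands out in stromal-like and podocyte-like cells, Cyp4f18 in both myeloid classes and Cyp27a1 in podocyte-like and macrophage-like cells. Cyp7b1 does so in connecting tubule and principal-like cells and, in sample 3, in stromal-like cells.

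Sterol and steroid enzymes were spread over further classes. Cyp7b1, the oxysterol 7-alpha-hydroxylase, had 156, 97.4, 201 and 46.9 CPM in connecting tubule and principal-like cells and 62.6, 52.9, 235 and 2.71 CPM in stromal-like cells. The high stromal value of sample 3 came largely from the mural cluster 15, led by Pdgfrb and Ednra, at 316 CPM. In PT-like cells Cyp7b1 had 75.7, 26.8, 6.11 and 1.20 CPM, against 0.607, 1.51, 7.86 and 0 CPM in TAL-like cells (2.97 ± 1.07, adjusted p = 0.0517), with sample 3 in the opposite direction. Cyp27a1 was also high in podocyte-like cells, the filtration cells of the glomerulus, at 134, 101, 24.4 and 96.3 CPM. Cyp46a1, the cholesterol 24-hydroxylase, reached 1.64, 5.42, 2.53 and 4.81 CPM there on 11 UMIs. Cyp1b1 had 75.0, 105, 42.9 and 214 CPM in stromal-like cells and 52.5, 79.5, 141 and 28.9 CPM in podocyte-like cells. Its highest values were in the fibroblast cluster 44, led by Dcn and Pdgfra, with 818, 561 and 262 CPM in samples 2, 3 and 4. Sample 1 had 16 cells in this cluster, and its level is not given here.

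The steroidogenic members were rare. Cyp11a1, the side-chain cleavage enzyme that starts steroid synthesis, had 107 UMIs. Of these, 52 lay in the macrophage-like cluster 32 of sample 3 (29.2 CPM) and 14 in the podocyte-like cells of sample 2. Cyp17a1, the 17-alpha-hydroxylase, had 42 UMIs, 32 of them in TAL-like cells, at 3.34, 2.27, 0.202 and 1.93 CPM. The other retinoic acid hydroxylases were near the detection limit, Cyp26a1 with 62 UMIs, 37 of them in endothelial-like cells, and Cyp26c1 with 29. Cyp2f2, known from lung club cells, had 28 of 41 UMIs in PT-like cells, Cyp2b9 had 18 of 31 in neutrophil-like cells, and Cyp3a57 had 35 of 38 in sample 3.

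Some members resemble each other closely enough for reads to be shared. In the GENCODE M21 transcripts, 7 members had more than 10% of their 60-base words in common with another Cyp gene. Cyp4a32 shared 39.09% of its words, mostly with Cyp4a10, which shared 24.64% and Cyp4a31 15.84%. Cyp2a4 shared 28.71% and Cyp2a5 23.06%, each with the other, Cyp4f16 shared 21.25%, mostly with Cyp4f37, and Cyp2d9 shared 16.86%. Levels of these 7 genes are uncertain to the extent that their reads were split or dropped. For 31 members no word was shared.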

How the data were processed

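Fresh kidney tissue of wild-type mice (4 samples) was dissociated and profiled on the 10x Genomics platform, per the labels' protocols. The authors deposited UMI counts per gene and cell barcode, 1 matrix per sample. The submitters' processing notes name Cell Ranger 9.0.1 and Seurat 4.1.1, with no role stated. The sources used here do not name the genome build or the annotation.

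Cells with 500 or more UMIs, 300 or more genes and under 50% mitochondrial UMIs were kept (depth per library 36831995 to 105436725 UMIs). They were clustered (Scanpy 1.11.5, Leiden resolution 2) without P450 genes or the pathway lists among the variable genes, and a cluster was named from 3 or more markers with no P450 among them. Scrublet called 0.0141% to 1.445% of cells, below 0.5% in 3 of 4 libraries, so no doublet call was used. Counts were summed per sample and class (10 or more cells) and tested with edgeR 4.0.16 (quasi-likelihood, TMM, filterByExpr, sample as block, Benjamini-Hochberg over all genes). The block pairs classes of the same sample. CPM were computed from the sums, an upper limit for 0 UMIs is 3 counts, and intervals cover counting error only. DESeq2 1.42.0, RLE, no filter, no block, each sample left out, a 20% mitochondrial limit, thinning to 1000 UMIs, removal of the highest doublet scores and 4 markers were tried. The model was tested on simulated data. The members, gene lists and comparisons were chosen with earlier results of these data known. Values were given for members of role lists, for up to 6 members with the highest mean per class and for up to 8 called members with the largest change per comparison; other genes were named after their values were seen.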

Additional observations from a re-analysis of the deposited data

Results flagged for a closer look

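In 5 of the 44 members with 10 or more UMIs in their highest class, 1 sample stood apart from the other 3 by more than Dixon's 95% limit for 4 samples; chance flags about 1 in 20 groups. Cyp24a1 reached 163 CPM in PT-like cells of sample 3. Cyp2j8 reached 10.7 CPM in PT-like cells of sample 3. Cyp4a32 reached 19.0 CPM in PT-like cells of sample 2. Cyp11a1 reached 25.3 CPM, on 14 UMIs, and Cyp26a1 reached 12.7 CPM in podocyte-like cells of sample 2.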

How the results depend on the processing

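No called member changed sign under any alternative run. For PT-like against TAL-like cells, 26 members were called, 24 of them under every alternative that tested them. Thinning to 1000 UMIs left 11 members tested, against 28 before, and all 11 were called. For S3-like against S1/S2-like cells, 17 of 24 members tested were called, and 0 of 24 without the replicate block. DESeq2 called 11 of 17 tested, 5 of 12 were called after thinning and 7 of 22 without the injury-led clusters. Leaving out a sample would leave 1 sample and was not run. For Havcr1-positive against negative cells, 3 were called, 0 without the replicate block, 1 by DESeq2 and 0 after thinning (each tested only 7 members), and 1 in S1/S2 clusters alone; leaving out each sample gave 1 to 3. For endothelial-like against leukocyte-like cells, 14 of 23 members tested were called, 9 of them under every alternative that tested them. Without the replicate block 9 were called. For macrophage-like against neutrophil-like cells, 13 of 16 members tested were called, 6 of 16 without the replicate block and 5 of 7 after thinning. Leaving out each sample gave 6 to 15, with 11 to 23 members tested. The cause of these losses beyond fewer counts or samples was not tested. Of the class levels recomputed, 185 moved by less than 1 SD over samples, and thinning moved 3, those of Cyp17a1, Cyp39a1 and Cyp7b1. Over all genes, the higher and lower calls for PT-like against TAL-like cells were 2295 and 2254, against 1143 and 1060 without the block and 1030 and 962 after thinning. For S3-like against S1/S2-like cells they were 1072 and 1734, against 0 and 0 without the block, 343 and 550 by DESeq2, 157 and 600 after thinning and 125 and 515 without the injury-led clusters. For Havcr1-positive against negative cells they were 51 and 169, against 1 and 0 without the block, 80 and 455 without the filter and 20 and 58 in S1/S2 clusters alone. Leaving out sample 1 gave 25 and 55 there, and leaving out sample 2 gave 9 and 49. For macrophage-like against neutrophil-like cells they were 4035 and 3351, against 2425 and 2156 after thinning. Members with few UMIs are limited by depth, which was lowest in sample 4.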
